A study of Mus musculus with 6 samples.

Results

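Tight junctions seal the space between neighboring epithelial cells near the lumen and set which ions and molecules pass between them. Claudins form their strands, some of them as barriers and others as channels for small ions and water, while occludin is a further membrane protein of the strand and ZO-1 is a scaffold that ties the strand to the actin cytoskeleton. In the colon this barrier keeps bacteria away from the tissue beneath, and its composition is known to change in colitis and in colon tumors. The mRNAs followed here were those of 8 claudins (Cldn1, Cldn2, Cldn3, Cldn4, Cldn7, Cldn8, Cldn15 and Cldn23), of Ocln, which encodes occludin, and of Tjp1, which encodes ZO-1. The 10 genes were chosen with earlier results of these data known. Their probes were taken by symbol alone, as every gene probe that the scanner files name with 1 of these 10 symbols, and 13 of the 56605 gene probes on the array met this rule. All 10 genes passed the filter on dim probes and were among the 19090 genes tested.

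The study asked what RG@M-γ-CD, an inclusion complex of the multi-kinase inhibitor regorafenib (RG) in mannose-modified γ-cyclodextrin, changes in the colon of mice with colitis-associated cancer (CAC). All 6 animals were male C57BL/6 mice, bought at 6 to 8 weeks of age, and the sources name no engineered allele. Each had received azoxymethane (AOM, 10 μg/g), a carcinogen, and then 2% dextran sodium sulfate (DSS), which injures the colonic epithelium, in the drinking water for 5 days. After tumors had formed, 3 mice received oral RG@M-γ-CD (30 μg/g, holding 10 μg/g RG) and 3 received PBS for 21 days, and the colons were taken after a further 14 days of observation. RNA came from whole pieces of tumor-bearing colon, so that fewer cells of a type and less RNA per cell cannot be told apart in any value below. Carriers without RG, free RG and colon without tumors are not analysed here, and neither is any protein, so the location of the junction proteins in the cells is outside these data.

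One array was run per mouse, and the share of gene probes read well above background ran from 49.6% to 55.2%. Of the 12 general epithelial markers, all were well above background on all 6 arrays. Of 9 small intestinal markers, 6 were not well above background on any array, among them the brush border enzymes Lct, Sis and Alpi. The other 3 were well above background on all 6 arrays. Of all genes, limma called 0 at an adjusted p of 0.05 with all 6 arrays. It called 202 once RG@M-γ-CD replicate 1 was left out and 0 with any other array left out. By another measure RG@M-γ-CD replicate 2 was more extreme: it was the lowest or highest array in 57.2% of all genes, and replicate 1 in 47.7%. The hierarchical clustering shown by the study puts RG@M-γ-CD replicates 2 and 3 with PBS replicate 1, and RG@M-γ-CD replicate 1 with PBS replicates 2 and 3, which goes across the labels of the deposited arrays. The results follow the labels, with values without RG@M-γ-CD replicate 1 beside several of them, and the 10 genes are also set out in the grouping of that clustering. RG@M-γ-CD replicate 1 was singled out from these same data, so p-values and calls without it are descriptions and cannot serve as tests. Levels are log2 intensities minus the 75th percentile of all gene probes of the same array, so that a gene at 0 is as bright as that percentile, and they are compared between arrays and not between probes.

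The sequences behind the results are shown first for Cldn2 and Cldn4, the pore-forming claudin and the barrier claudin whose values are described most closely. Their probes below lie in the coding part of the transcript, at chrX:136343432-136343491 on the plus strand for Cldn2 and at chr5:135422135-135422194 on the minus strand for Cldn4 (mm9, the build named in the scanner files).
Cldn2 probe A_51_P437045: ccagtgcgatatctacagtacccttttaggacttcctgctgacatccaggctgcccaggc
Cldn4 probe A_55_P2183453: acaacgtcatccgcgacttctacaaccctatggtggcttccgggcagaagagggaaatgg
Each has 60 bases and a GC content of 55.0%. Cldn2, Cldn7 and Tjp1 are each read by a second probe, and the other 7 genes by a single probe.

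Promoter sequence from RefSeq (GRCm38.p6) was at hand for 8 of the 10 genes, in 10 windows that run from 250 bases before to 50 bases after a transcription start, and Cldn8 and Cldn23 had no entry. Both strands were searched for CACCTG, the E-box form bound by Snail and Zeb repressors of epithelial genes, and for TTTATG, a core bound by the intestinal CDX factors, which do not overlap each other. An E-box lay in 5 of the 10 windows, those of Cldn3, Cldn4, Ocln (both windows, which overlap and share a match) and the second start of Cldn7, against 20.2% of all 32851 windows. The CDX core lay in 1 window, that of Cldn2, against 11.9% of all windows. The 250 bases before the start are printed for Cldn2 (chrX:139800558-139800807, plus strand), with the CDX core in capitals, and for Cldn4 (chr5:134946935-134947184, minus strand), with the E-box in capitals.
Cldn2 upstream: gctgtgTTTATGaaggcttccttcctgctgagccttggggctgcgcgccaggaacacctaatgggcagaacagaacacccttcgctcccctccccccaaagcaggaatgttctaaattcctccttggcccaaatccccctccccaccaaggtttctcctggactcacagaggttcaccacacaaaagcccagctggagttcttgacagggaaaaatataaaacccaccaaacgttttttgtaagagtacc
Cldn4 upstream: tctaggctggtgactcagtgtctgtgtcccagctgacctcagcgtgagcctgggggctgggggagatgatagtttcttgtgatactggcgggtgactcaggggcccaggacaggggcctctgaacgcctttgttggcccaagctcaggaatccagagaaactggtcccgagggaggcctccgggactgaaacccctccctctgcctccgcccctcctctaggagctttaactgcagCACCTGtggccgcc
A second E-box of Cldn4 lies after the start. These matches describe letters in a window and not binding. The levels of the genes that encode factors of both kinds are given with the junction regulators.

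No claudin, nor Ocln or Tjp1, met the test for a change between the RG@M-γ-CD and the PBS group. In limma, 0 of the 10 fell below an adjusted p of 0.05, as did 0.00% of the 19090 genes tested, and 0 of the 10 lay at an unadjusted p below 0.05, where 419 of all genes (2.19%) did. The methods' t-test on the same values also called 0 genes after adjustment, with 381 at an unadjusted p below 0.05. At the thresholds of the methods, a fold change of 2 with an unadjusted p of 0.05, 0 of the 10 were called beside 0.561% of all genes. Of the 10 log2 changes, 3 were above 0 (47.2% of all genes were) and 7 below, between -0.59 for Cldn4 and 0.17 for Ocln, with a median of -0.036 beside -0.012 over all genes. In 0 of the 10 genes did the arrays of the groups fail to overlap, which 4.57% of all genes did. For 6 of them, Cldn2, Cldn3, Cldn7, Cldn23, Tjp1 and Ocln, the 95% interval of the change stayed within 2-fold in both directions, as it did for 73.6% of all genes. For Cldn1, Cldn4, Cldn8 and Cldn15 the interval reached beyond 2-fold, so that changes of that size lay within it.

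**Figure D1:**
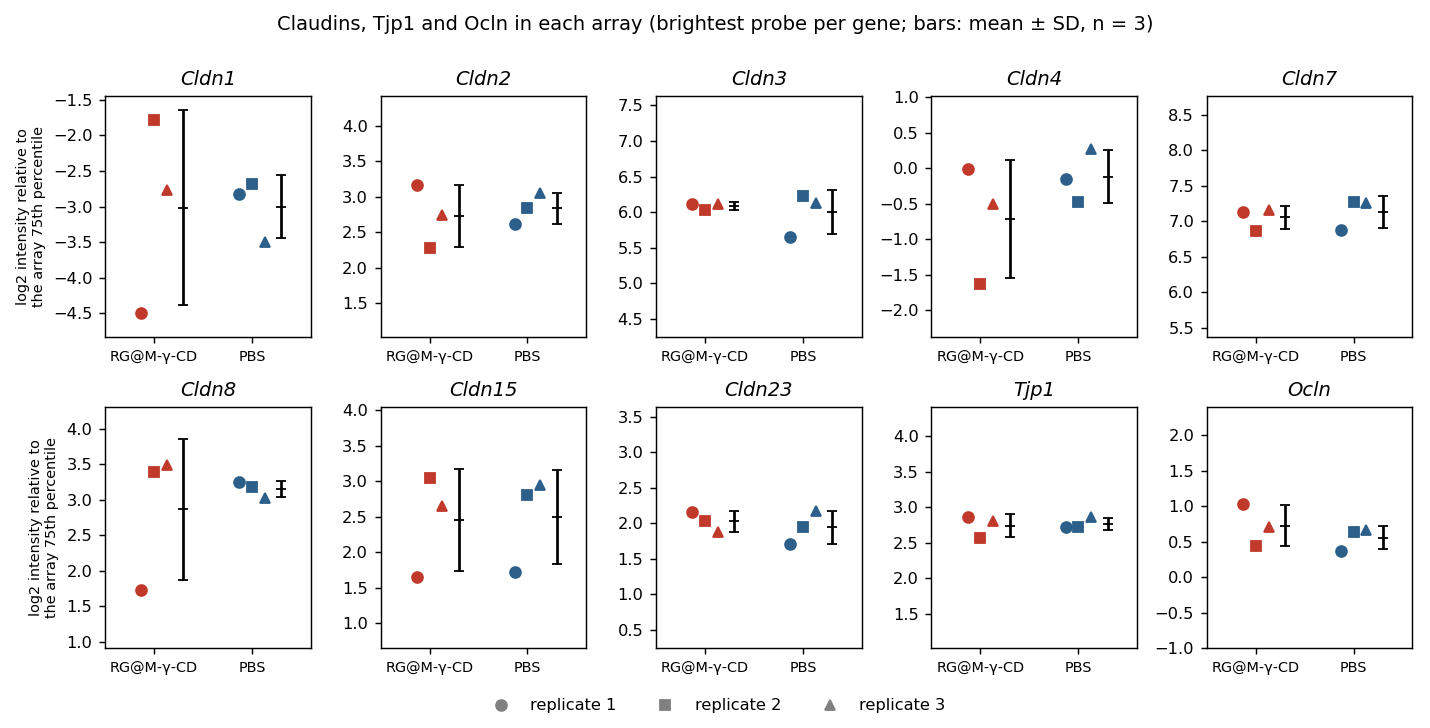
Log2 intensity relative to the 75th percentile of the array (y axis, each panel spanning the same log2 width) for the brightest probe of each gene in the 3 RG@M-γ-CD (red) and 3 PBS (blue) arrays, with marker shapes for replicates and bars for the mean and SD. The groups overlap in all 10 panels, the arrays lie close together for Tjp1 and Cldn7, and Cldn1 runs from -4.50 to -1.78 within the RG@M-γ-CD group.

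Cldn2 forms channels for cations and water, is expressed in colonic crypts and is known to rise in inflamed colon. Its brighter probe read 3.17, 2.29 and 2.74 in RG@M-γ-CD replicates 1, 2 and 3 and 2.62, 2.85 and 3.06 in PBS replicates 1, 2 and 3. The highest and the lowest of the 6 arrays were both treated ones, and the PBS arrays lay between them. The group means were 2.73 ± 0.44 and 2.84 ± 0.22 (SD, n = 3), a change of -0.11 ± 0.26 (SE), and of -0.33 without RG@M-γ-CD replicate 1 (limma adjusted p = 1.0 and 0.705). The coding probe printed above gave -1.63, -2.21 and -1.89 in the treated arrays and -2.31, -2.03 and -1.67 in the controls. Its change of 0.091 had the opposite sign, and both probes differed from 0 by less than their standard error. The gap between the 2 probes stayed within a spread of 0.44 over the 6 arrays, and both had RG@M-γ-CD replicate 1 and PBS replicate 3 as the highest arrays and RG@M-γ-CD replicate 2 and PBS replicate 1 as the lowest.

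Cldn15, the other channel-forming claudin, carries sodium across the intestinal epithelium. It read 1.65, 3.04 and 2.65 in the RG@M-γ-CD arrays and 1.73, 2.81 and 2.95 in the PBS arrays. Each group thus held 1 low array, replicate 1 in both, and the other 4 arrays lay between 2.65 and 3.04. The change was -0.047 ± 0.47 (SE), and it became 0.35 without RG@M-γ-CD replicate 1 and -0.43 without PBS replicate 1 (limma adjusted p = 0.838 and 1.0). All RG@M-γ-CD arrays and PBS replicate 1 lay in 1 row of the slide and PBS replicates 2 and 3 in the other, and with the row as a block, which compares the treated arrays with PBS replicate 1 alone, the change was 0.72 (limma adjusted p = 0.997).

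Among the claudins known for sealing the junction, Cldn1 varied most. Its values were -4.50, -1.78 and -2.77 with RG@M-γ-CD and -2.82, -2.68 and -3.50 with PBS. The treated arrays held both the lowest and the highest value, 6.59-fold apart, and enclosed all controls. The means, -3.02 ± 1.38 and -3.00 ± 0.44 (SD, n = 3), differed by -0.014 ± 0.67 (SE), and by 0.73 when RG@M-γ-CD replicate 1 was left out (limma adjusted p = 0.562). Its probe, though dim, was well above background on all 6 arrays.

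Cldn4, a barrier claudin and a receptor for Clostridium perfringens enterotoxin, had the largest change of the 10. It read -0.0049, -1.62 and -0.50 in the treated arrays and -0.15, -0.47 and 0.27 in the controls. RG@M-γ-CD replicate 2 was far below all other arrays, while RG@M-γ-CD replicate 1 was exceeded by PBS replicate 3 alone. The change was -0.59 ± 0.43 (SE), with an unadjusted p of 0.216 and an adjusted p of 1.0 in limma. Leaving out RG@M-γ-CD replicate 1 took it to -0.95, with both remaining treated arrays below all controls, as in 12.2% of all genes (limma adjusted p = 0.412), and leaving out RG@M-γ-CD replicate 2 took it to -0.14.

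Cldn8, which limits the leak of sodium back into the lumen of the distal colon, was low in a single array. Its values were 1.73, 3.39 and 3.49 with RG@M-γ-CD and 3.26, 3.18 and 3.03 with PBS. RG@M-γ-CD replicate 1 lay far below all other arrays, while the other 2 treated arrays were above all controls, as in 13.7% of all genes without that array. The change was -0.29 ± 0.47 (SE) with that array and 0.28 without it (limma adjusted p = 1.0 and 0.636).

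Cldn3, the neighbor of Cldn4 on chromosome 5 and a second receptor for the enterotoxin, was even across the arrays. It gave 6.12, 6.03 and 6.12 in the treated and 5.65, 6.22 and 6.12 in the control arrays. PBS replicate 1 was the low one, and the treated arrays had an SD of 0.053. The change was 0.086 ± 0.19 (SE, limma adjusted p = 1.0), and over the 6 arrays Cldn3 spanned 0.57 where Cldn4 spanned 1.89.

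Cldn7 also lies along the lateral membrane of epithelial cells and is known to be needed for an intact intestinal lining. Its brighter probe read 7.14, 6.87 and 7.16 with RG@M-γ-CD and 6.87, 7.27 and 7.26 with PBS, a change of -0.078 ± 0.18 (SE, limma adjusted p = 1.0). The dimmer probe read -2.37, -1.89 and -2.70 in the treated arrays and -1.51, -2.20 and -1.86 in the controls, a change of -0.47 (limma adjusted p = 1.0, fitted over all probes). The 2 probes did not follow each other: the gap between them varied by 1.48 over the arrays, against 0.44 for the probes of Cldn2 and 0.31 for those of Tjp1. The 60 bases of the dimmer probe match the sequence from 151 to 92 bases before the second RefSeq start of Cldn7, inside the window chr11:69965171-69965470 (GRCm38.p6, plus strand), so it does not read the transcript from that start. The level of Cldn7, as of every gene, is that of its brightest probe.

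Cldn23, a claudin of the luminal surface of the colon, read 2.16, 2.04 and 1.88 in the treated and 1.71, 1.95 and 2.17 in the control arrays. PBS replicates 1 and 3 were its lowest and highest arrays. The change was 0.085 ± 0.18 (SE, limma adjusted p = 1.0).

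Ocln read 1.03, 0.44 and 0.71 with RG@M-γ-CD and 0.37, 0.64 and 0.67 with PBS, with RG@M-γ-CD replicate 1 as the highest array. The change of 0.17 ± 0.20 (SE, limma adjusted p = 1.0) was the largest upward one of the 10, and without that array it was 0.019. Tjp1 had the least variable level. Its brighter probe gave 2.86, 2.56 and 2.81 in the treated arrays and 2.72, 2.72 and 2.87 in the controls, a change of -0.025 ± 0.16 (SE), and its second probe changed by 0.066 (limma adjusted p = 1.0 for both).

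**Figure D2:**
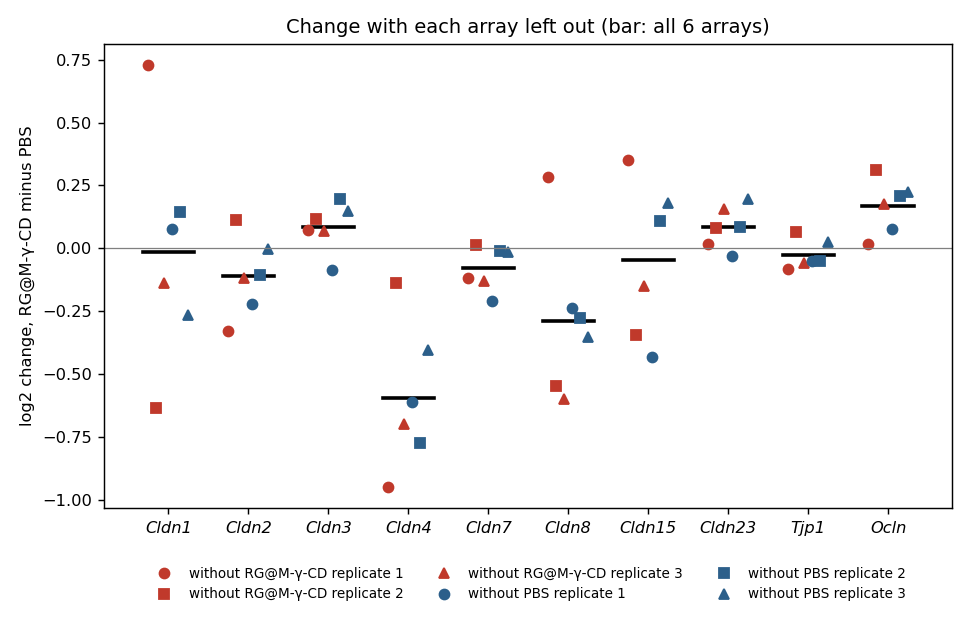
Log2 change, RG@M-γ-CD minus PBS, of each gene (y axis) with all 6 arrays (black bars) and with 1 array left out (red for an RG@M-γ-CD and blue for a PBS array, shapes for replicates). Leaving out RG@M-γ-CD replicate 1 took Cldn1 to 0.73, Cldn8 to 0.28, Cldn15 to 0.35 and Cldn4 to -0.95, while Tjp1 stayed between -0.083 and 0.064.

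The 10 genes differed in how far the arrays spread. The range over the 6 arrays was 2.72 for Cldn1, 1.89 for Cldn4, 1.76 for Cldn8 and 1.39 for Cldn15, which was more than 96.1%, 89.1%, 87.5% and 80.8% of all genes tested. It was 0.88 for Cldn2, 0.66 for Ocln, 0.57 for Cldn3, 0.46 for Cldn23, 0.40 for Cldn7 and 0.30 for Tjp1. The median range of the 10 was 0.77 beside 0.72 over all genes, with 5 of the 10 above the latter. The spread was mostly within the treated group for Cldn1, with an SD of 1.38 against 0.44, and for Cldn8, with 0.99 against 0.11, and within the control group for Cldn3.

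**Figure D3:**
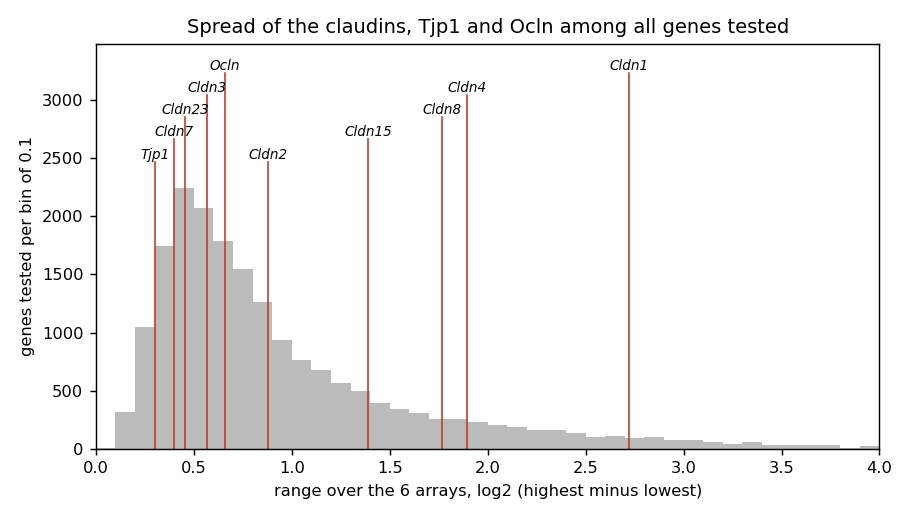
Number of tested genes (y axis, grey bars) by their range over the 6 arrays in log2 units (x axis), with the ranges of the claudins, Tjp1 and Ocln as red lines. Tjp1 (0.30), Cldn7 (0.40) and Cldn23 (0.46) sit at the even end, and Cldn15, Cldn8, Cldn4 and Cldn1 (1.39 to 2.72) lie in the upper tail.

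Cell type markers also differed from array to array, and they were summed per array as linear levels. The brightest genes weigh most in such a sum, and single markers can run in another order. The likenesses to claudins given below were picked from several lists after the values were seen, and no correlation was computed. The 12 epithelial markers summed to 1253, 1245 and 1487 in RG@M-γ-CD replicates 1 to 3 and to 1128, 1667 and 1411 in PBS replicates 1 to 3. Their order was close to that of Cldn3 and Cldn7, which were also low in PBS replicate 1 and high in PBS replicate 2. The 8 crypt base and Wnt target markers summed to 217, 66.3 and 118 in the treated and to 127, 133 and 147 in the control arrays. Cldn2 followed the same order save for 1 exchange between RG@M-γ-CD replicate 3 and PBS replicate 1, with RG@M-γ-CD replicate 1 highest and replicate 2 lowest in both.

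Differentiated cells gave other patterns. The 10 surface colonocyte markers summed to 213, 291 and 533 in the treated arrays and to 195, 438 and 347 in the controls, and the 8 goblet cell markers to 563, 1736 and 1339 and to 916, 1869 and 1414. Both sums were lowest in replicate 1 of the 2 groups, the arrays in which Cldn15 was low. The 8 smooth muscle markers summed to 105, 676 and 812 with RG@M-γ-CD and to 232, 199 and 223 with PBS, so RG@M-γ-CD replicate 1, the array with the lowest Cldn1 and Cldn8, held the least and the other treated arrays the most. Their median change was 0.93 with all arrays, with 0 of 8 called in limma, as 0.00% of all genes were. Without RG@M-γ-CD replicate 1, the array lowest in these markers, it was 1.82 with 6 of 8 called, beside 1.04% of all genes. That array was left out after the values were seen, so the count of 6 is a description and not a test of the treatment. Summed leukocyte markers lay between 63.3 and 152 in the treated and between 134 and 158 in the control arrays, and fibroblast markers between 89.2 and 153 and between 117 and 123. Squamous markers summed to between 15.7 and 26.3 in the treated and between 24.8 and 31.7 in the control arrays. Of these 10 markers, 7 were well above background on all 6 arrays, and the basal keratin Krt5 on 2. The part of tissue makeup in the values of the claudins, Ocln and Tjp1 was not tested.

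**Figure D4:**
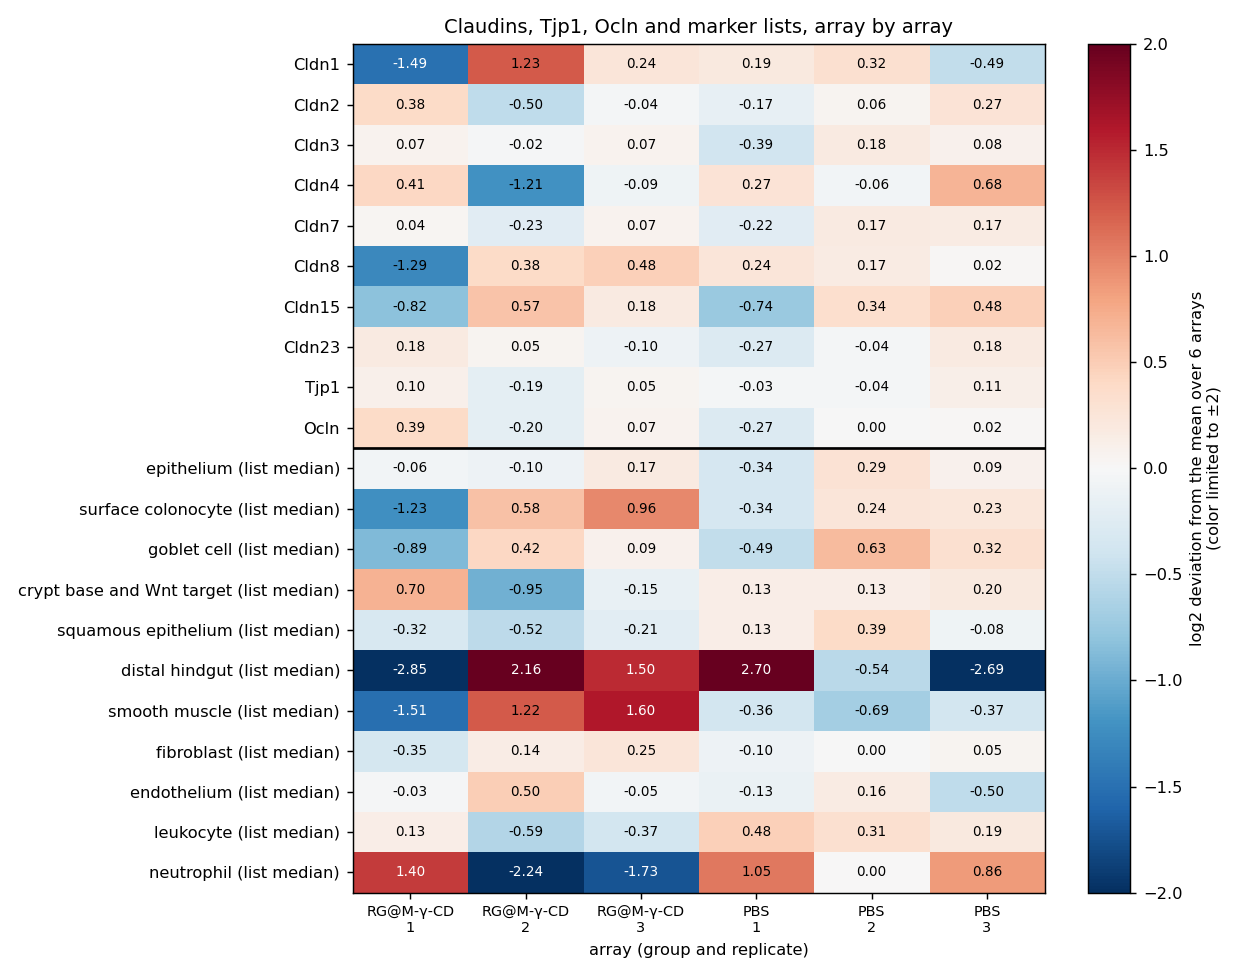
Deviation of each array (columns) from the mean over the 6 arrays, in log2 units, for the brightest probe of each claudin, Tjp1 and Ocln and for the median gene of each marker list measured on the array (rows). RG@M-γ-CD replicate 1 was low in Cldn1 (-1.49), Cldn8 (-1.29), Cldn15 (-0.82), surface colonocyte (-1.23) and smooth muscle markers (-1.51), and RG@M-γ-CD replicate 2 was low in Cldn4 (-1.21) and crypt markers (-0.95).

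In the grouping of the study's clustering, the direction was set as RG@M-γ-CD replicates 2 and 3 with PBS replicate 1, minus RG@M-γ-CD replicate 1 with PBS replicates 2 and 3. These sets were drawn from the values of these same arrays. The p-values and intervals between them are therefore descriptions and cannot serve as tests. Here too limma called 0 of the 10 genes at an adjusted p of 0.05, beside 0.0259% of 19298 genes (5 genes). Cldn2 was lower by -0.47 ± 0.17 (SE) in the first set, with an unadjusted p of 0.0318 (16.5% of all genes lay below 0.05) and an adjusted p of 0.297. All 3 arrays of the first set were below the other 3 for Cldn2, at 2.29, 2.74 and 2.62 against 3.17, 2.85 and 3.06, as in 18.4% of all genes. Cldn8 was the reverse, at 3.39, 3.49 and 3.26 against 1.73, 3.18 and 3.03, a difference of 0.73 (adjusted p = 0.335), and 7.07% of all genes were separated in that direction. The largest difference was that of Cldn1 at 1.11, with an adjusted p of 0.311 and overlapping arrays. Of the others, Cldn15 was at 0.0044, and Cldn4, Ocln, Cldn7, Cldn3, Cldn23 and Tjp1 lay between -0.69 and -0.12. The median over the 10 was -0.22, beside -0.12 over all genes.

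The posterior Hoxd genes, which mark position along the gut, separated the same sets of arrays. Hoxd13 read -3.77, 3.20 and 2.33 in RG@M-γ-CD replicates 1 to 3 and 3.35, -0.09 and -2.89 in PBS replicates 1 to 3. Hoxd12 was well above background on 3 of the 6 arrays and not on the others, at -6.94, -0.72 and 0.36 in the treated and 1.69, -6.30 and -6.86 in the control arrays. Hoxb13 and Hoxa13, which mark the hindgut as well, stayed between 6.14 and 6.79 and between 0.27 and 0.65. With the labels, Hoxd13 was at a change of 0.47, and without RG@M-γ-CD replicate 1 at 2.64 (limma adjusted p = 1.0 and 0.665). Of 7 hindgut genes 6 had a probe and 3 were tested, and they summed to between 93.5 and 110 in the treated and between 80.1 and 113 in the control arrays, most of it from Hoxb13. Cldn8, known for its distal expression, had its 3 highest arrays where Hoxd13 had its own, though 3.26 in PBS replicate 1 and 3.18 in PBS replicate 2 lay close together, and the part of colon position in the junction values was not tested.

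**Figure D5:**
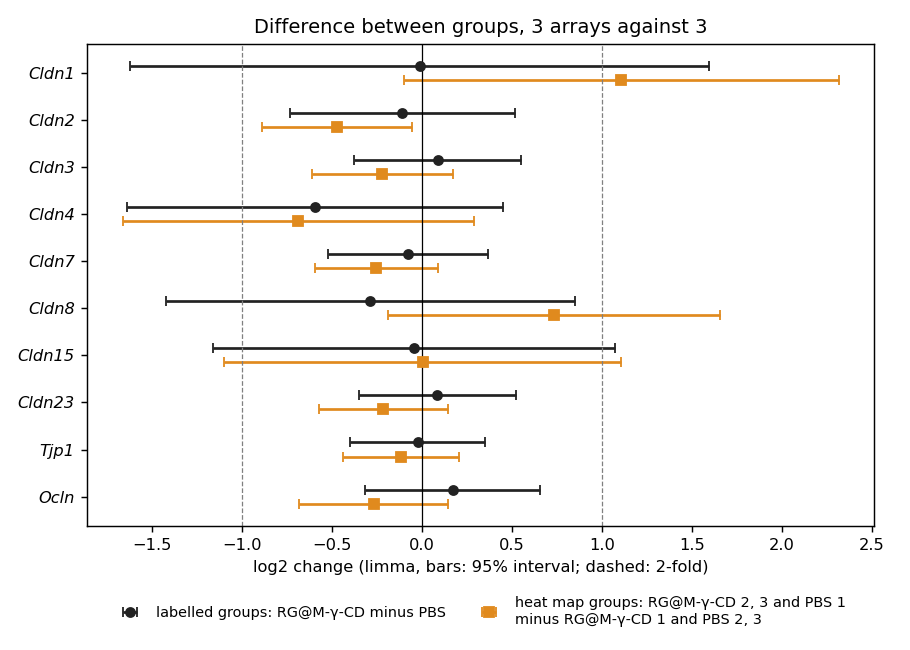
Log2 change with its 95% interval from limma (x axis, dashed lines at 2-fold) of each gene (y axis) for the labelled groups (black circles, RG@M-γ-CD minus PBS) and for the grouping of the study's clustering (orange squares). The black intervals all include 0, and among the orange ones that of Cldn2, at -0.47, lies below 0. The orange grouping was drawn from these same arrays, so its intervals are a description and not a test.

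The remaining junction genes were counted from lists by role. Of 20 other claudins, 19 had a probe, 11 were not well above background on any array, and 5 were tested, of which 4 were higher and 1 lower in the RG@M-γ-CD group, with 0 called in limma. Cldn5, the claudin of blood vessels, read -0.30, 1.0 and -0.12 in the treated and -0.72, 0.086 and -1.12 in the control arrays, a change of 0.78 (adjusted p = 1.0), and the summed endothelial markers lay between 20.1 and 30.9 and between 16.0 and 25.1. Cldn10, a further channel-forming claudin, read -3.75, -3.33 and -3.05 against -4.22, -3.80 and -4.27, a change of 0.72 ± 0.24 (SE). The treated arrays lay above all controls for Cldn10, as in 2.38% of all genes, with an unadjusted p of 0.0219 and an adjusted p of 1.0 in limma. The Cldn10 probe was dim, though well above background on all 6 arrays. Without RG@M-γ-CD replicate 1, Cldn5 was at 1.03 and Cldn10 at 0.91 (limma adjusted p = 0.471 and 0.151).

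Of the other junction membrane proteins, all 11 were tested, 5 higher and 6 lower, with 0 past the adjusted threshold and a median change of -0.022. Those with the largest changes were Ildr2, an angulin related to the proteins of tricellular contacts, at 0.90, and Clmp, an adhesion protein of the CAR family, at 0.69 (limma adjusted p = 1.0 for both), and without RG@M-γ-CD replicate 1 they were at 1.21 and 1.26 (limma adjusted p = 0.221 and 0.0897). Of 24 scaffold and polarity proteins, 22 were tested, 15 higher and 7 lower, with a median of 0.073 and 0 called. Magi2, a junctional scaffold, was lower by -0.57 with all treated arrays below the controls (2.19% of all genes were so), and Mpdz, a multi-PDZ scaffold, was at 0.48 (limma adjusted p = 1.0 for both). Without RG@M-γ-CD replicate 1, Magi2 was at -0.70 and Mpdz at 1.05 (limma adjusted p = 0.321 and 0.198). Of 16 adherens junction and desmosome genes, 15 were tested, 7 higher and 8 lower, with a median of -0.050 and 0 called, and the largest were Evpl, a plakin of the cornified envelope, at 0.38 and Nectin1, an adhesion receptor, at 0.28 (limma adjusted p = 1.0 for both). Without that array they were at 0.49 and 0.64 (limma adjusted p = 0.365 and 0.305).

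The 23 junction regulators were all tested, 16 higher and 7 lower, with a median of 0.050 and 0 called. Mylk, the myosin light chain kinase whose activity opens epithelial junctions and which smooth muscle also expresses, read 2.38, 4.42 and 4.82 with RG@M-γ-CD and 2.90, 2.87 and 2.94 with PBS. The change was 0.97 (limma adjusted p = 1.0), and with RG@M-γ-CD replicate 1 left out 1.72 with an adjusted p of 0.0305, the single call among the junction genes in that fit, where 1.04% of all genes were called. That array was left out after the values were seen, so the call is a description and not a test. Mylk followed the order of the smooth muscle markers in the treated arrays, and its source cell was not tested. Zeb1, an E-box repressor, was at 0.52 with all arrays and at 1.06 without RG@M-γ-CD replicate 1 (limma adjusted p = 1.0 and 0.0678). It read -2.65, -0.99 and -1.07 in the treated and -1.91, -2.25 and -2.10 in the control arrays. RG@M-γ-CD replicate 1 was the lowest array for Zeb1, as for the smooth muscle markers, and the source cell of Zeb1 was not tested either. The values that follow for other factors were chosen after they were seen, for their motifs. Zeb2, Snai1 and Snai2 were at 0.11, 0.050 and -0.035, and Cdx1 and Cdx2 at 0.22 and 0.011 (limma adjusted p = 1.0 for all). Without RG@M-γ-CD replicate 1, Zeb2, Snai1 and Snai2 were at 0.44, 0.13 and 0.067, and Cdx1 and Cdx2 at 0.49 and 0.32 (limma adjusted p between 0.493 and 0.955). Cdx2 read 2.37, 2.89 and 3.68 in the treated and 2.09, 3.30 and 3.51 in the control arrays. A link of any of these factors to the claudins or Ocln was not tested.

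For the 2 most variable genes of the 10, the tested genes with the closest pattern were found by the root mean square difference of log2 values centred on each gene's mean over the 6 arrays. Closest to Cldn1 were Enpp3, an ectonucleotide phosphodiesterase, at 0.128, Cacna2d2, a calcium channel subunit, at 0.185, and Wfdc2, a secreted protease inhibitor-like protein, at 0.188. Enpp3 read -4.32, -1.88 and -2.57 in the treated and -2.88, -2.46 and -3.40 in the control arrays, with the same lowest array as Cldn1 and the same highest. Closest to Cldn4 were Cd276, an immune checkpoint ligand, at 0.0878, Chst11, a chondroitin sulfotransferase, at 0.0961, and Cenpm, a centromere protein, at 0.116. All 3 had RG@M-γ-CD replicate 2 as their lowest and PBS replicate 3 as their highest array, as Cldn4 did. These genes were picked for likeness from all genes tested, so shared lowest and highest arrays come with the choice. Among the 10 genes themselves the closest pairs were Cldn3 and Cldn7 at 0.115, Cldn7 and Tjp1 at 0.121, and Cldn3 and Cldn23 at 0.141, all of them genes of small range.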

How the data were processed

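The deposited sample labels set the groups. The authors labeled RNA with Cy3, scanned 1 one-color Agilent array per mouse and deposited spot intensities from Feature Extraction 10.7.1.1, corrected for background and not normalized between arrays. The log2 values that the authors deposited per probe, with the normalization unstated, were used as an alternative. The genes and lists, and the tests, were chosen with earlier results of these data known.

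Control spots and outlier spots (790 over the 6 arrays) were left out, 0 spots were saturated, and each array's 75th percentile was subtracted from its log2 intensities in R 4.3.3 (version 1.17.8 of data.table). A probe was tested if every array of the RG@M-γ-CD or of the PBS group read it well above background, with the brightest as the gene's probe. In the clustering grouping and with 1 array left out, this filter was applied to the sets compared, so the number of genes tested differed. Changes were fitted with limma 3.58.1 (lmFit, eBayes) and adjusted by Benjamini-Hochberg over all genes, with a threshold of 0.05. Of the 56605 gene probes, 32994 were named through their accession by RefSeq (the 13 probes described here kept their symbol), and the others by the scanner files. Summed marker levels are sums of 2 raised to each gene's level, over the genes on the array. Besides all 10 genes, the text names the 2 tested genes of each junction list with the largest absolute change, the 3 closest patterns, and markers that check the tissue. The fit was tested on simulated data first, and the number of arrays limits its precision. The alternatives changed the normalization, background correction, filters, choice of probe, blocks, test or grouping, or left out 1 array. With 3 arrays a side, a two-sided exact permutation p cannot be smaller than 0.1, so none was used.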

Additional observations from a re-analysis of the deposited data

How the results depend on the processing

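Every claudin, Ocln and Tjp1 stayed above an adjusted p of 0.05 in all of the 190 combinations of gene and alternative, 10 of them from the methods' t-test and the others from limma (lowest adjusted p = 0.297), and 28 of them turned the sign of a change. Of the 28, 6 came from the grouping of the study's clustering. The changed filters on dim probes, each probe as its own feature, the replicate block and the t-test left every log2 change of the 10 as it was. The 190 are therefore not independent checks. Cldn1, at -0.014, became 0.030 after quantile normalization and in the authors' table, 0.0092 with normexp and 0.0091 with the 50th percentile. Tjp1 was at 0.021 with the mean of its probes. The slide row as a block compares the treated arrays with PBS replicate 1 alone. With it, Cldn2 was at 0.11, Cldn7 at 0.18, Cldn15 at 0.72, Tjp1 at 0.022 and the median of the 10 genes at 0.15. In the grouping of the study's clustering, Cldn1 was at 1.11, Cldn3 at -0.22, Cldn8 at 0.73, Cldn15 at 0.0044, Cldn23 at -0.22, Ocln at -0.27, the median at -0.22 and the count of called genes at 5. The thresholds of the methods gave 107 genes with limma and 45 with the methods' t-test, 0 of them among the 10. Apart from these changes in which arrays are compared, the cause of the shifts was not tested.

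Leaving out 1 array moved Cldn1 between -0.63 and 0.73, Cldn2 between -0.33 and 0.11, Cldn3 between -0.087 and 0.20, Cldn7 between -0.21 and 0.015, Cldn8 between -0.60 and 0.28, Cldn15 between -0.43 and 0.35, Cldn23 between -0.031 and 0.20 and Tjp1 between -0.083 and 0.064. The median ran from -0.15 to 0.040, and the count of called genes from 0 to 202, with 202 when RG@M-γ-CD replicate 1 was left out. Cldn4 stayed below 0 and Ocln above 0 in each of these fits.

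With the replicate number as a block, 0 genes were called. Every number occurs in both groups, so this block leaves each change as it was and could not turn a sign. Deviations of arrays with the same number correlated across genes at -0.25, -0.23 and 0.14, so the numbers were not taken as pairs. The 3 arrays per group limit what can be seen: changes beyond 2-fold lie within the intervals of Cldn1, Cldn4, Cldn8 and Cldn15.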
